A study of Mus musculus with 6 samples.

Results

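The integrated stress response genes examined here are 36 genes listed by symbol: stress transcription factors, eIF2α kinases and a phosphatase subunit, feedback and growth regulators, amino acid transporters, amino acid enzymes, and secreted factors with a lipoprotein receptor. All 36 symbols were found among the 56691 genes of the deposited table, and 35 had enough reads to be tested, of 15987 genes tested in all. Fgf21, a fasting and stress hormone, was the 1 left out. Ddit3 had a second entry with 0 reads in every library, which was not used. Serine and folate enzymes and tRNA synthetases were not among the 36.

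The libraries came from primary hepatic stellate cells of wild-type (WT) mouse liver in 3 groups of 2: cells labelled Control, with no agent named, cells given TGF-β (TGF-beta), and cells given both TGF-β and K-80003 (called K-80003 here). Stellate cells store vitamin A beside the liver sinusoids and, when activated, make most of the scar collagen. K-80003 is known as a ligand of RXRα, the nuclear receptor in the study's title. No group received K-80003 alone, and the sources used here give no dose, treatment time or statement on whether the 2 libraries of a group came from separate mice or cultures. P-values therefore measure only the spread between these libraries.

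In the integrated stress response, kinases that sense endoplasmic reticulum stress, amino acid shortage, viral RNA or heme lack phosphorylate the translation factor eIF2α. General protein synthesis then slows, while the mRNA of the transcription factor ATF4 is translated better. ATF4 pairs with C/EBP and other bZIP proteins and switches on genes for amino acid uptake and synthesis, and later genes that damp the response or lead to cell death. Because ATF4 is set largely at translation, its mRNA is not a measure of its protein. In collagen-making cells the same amino acid and proline genes also supply matrix synthesis.

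Summed read counts ran from 15646093 to 19004144 per library. Levels below are in CPM, read counts scaled by TMM to a common library size. The 2 libraries of a group differed along transcript length: across the 15987 tested genes, which are not independent replicates, replicate 1 minus replicate 2 had a Spearman rho with exonic length of 0.45 in Control, -0.42 in TGF-beta and 0.40 in K-80003. Of 9 stellate markers, 7 were lower with K-80003 than with TGF-beta alone. Among them was Lrat, the retinol esterifying enzyme named here after its values were seen (11.7 ± 0.962 against 435 ± 60.4 CPM, SD, n = 2). The summed level of the 9 was 3560 and 2450 CPM with K-80003, 3450 and 5260 with TGF-beta, and 6470 and 4230 in Control. In bulk RNA, fewer cells of a type and less RNA per cell cannot be told apart. Of 10 hepatocyte markers 6 were tested; edgeR, DESeq2 and limma called none of them higher or lower with K-80003 against TGF-beta, 2 were higher and 1 lower at an unadjusted p under 0.05, and their median log2 difference was 1.85. edgeR called 7 higher without the low-count filter and 2 higher without K-80003 replicate 1. Their summed level was 5.19 CPM in K-80003 replicate 1 and 49.9 in K-80003 replicate 2, against 11.0 to 19.5 in the other libraries. The stellate count was 4 to 7 with 1 library left out. Of 8 sinusoidal endothelial markers 3 were higher and 1 lower (0 higher when any TGF-beta or K-80003 library was left out), with a summed level of 562 and 665 CPM with K-80003 against 301 to 481 elsewhere. The summed level of 8 macrophage markers was 29.7 and 34.1 CPM with K-80003 and 53.5 to 72.0 elsewhere, and that of 8 cholangiocyte and mesothelial markers was 208 and 251 with K-80003, 254 and 312 with TGF-beta, and 819 and 1170 in Control. No marker of these lists was at 0 in all 6 libraries; the part of these cells in the results was not tested.

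**Figure D1:**
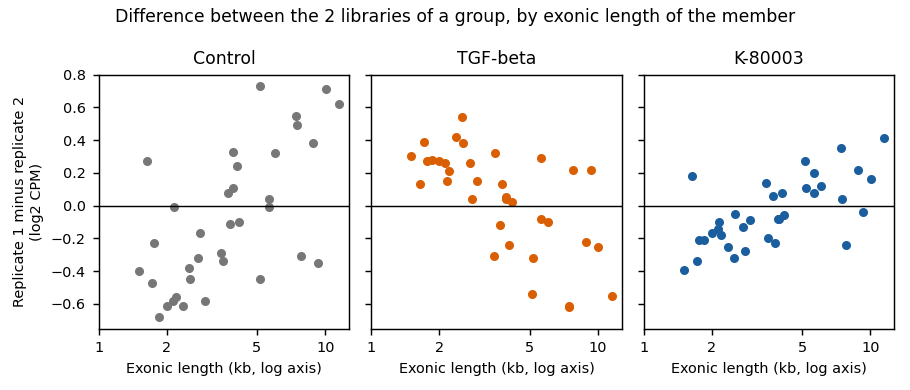
Difference in log2 CPM between replicates 1 and 2 of each group (y axis) against the exonic length of each of the 35 tested genes (x axis, kilobases, log axis). Gdf15 and Slc7a1 lay on opposite sides of 0 in each group, but the long genes Bcat1 and Pck2 lay on the side of Gdf15.

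Single genes followed length only in part. Gdf15, with an exonic length of 1852 bases, had a replicate difference of -0.68 in Control, 0.28 in TGF-beta and -0.21 in K-80003 on the log2 scale. Slc7a1, with 11530 bases, had differences of 0.62, -0.55 and 0.41. Bcat1, with 9322 bases, had -0.35, 0.22 and -0.04, and Pck2, with 7806 bases, -0.31, 0.22 and -0.24, the same signs as the short Gdf15.

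The comparison of K-80003 with TGF-beta alone asks what adding the compound did on top of the cytokine. Of the 36 genes, 22 rose, 13 were tested and not called, and 1 was not tested. Over all genes tested, 2.78% were called higher and 7.32% lower. None of the 35 was called lower by edgeR, none by DESeq2 or limma, and none had a lower value at an unadjusted p under 0.05. The median log2 fold change of the 35 was 1.02, with values from 0.05 to 3.18, against 0.01 over all genes tested. Calls rest on an adjusted p under 0.05 from edgeR's quasi-likelihood test, and all adjusted p-values below are from it. Levels (CPM) are given in the order replicate 1, replicate 2.

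The summed level of the 36 genes was 2486 and 2676 CPM in the Control libraries, 3346 and 3199 with TGF-beta, and 6330 and 6519 with K-80003. Both K-80003 libraries lay above all 4 others in the sum. Of the 22 calls, 10 held with each library left out in turn: Atf3, Ddit3, Trib3, Chac1, Slc7a5, Slc3a2, Asns, Cth, Bcat1 and Vldlr. The count was 25 without either Control library, 15 and 12 without TGF-beta replicates 1 and 2, and 10 without either K-80003 library. DESeq2 called 26, adding Ppp1r15a, Eif4ebp1, Slc7a1 and Gdf15.

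**Figure D2:**
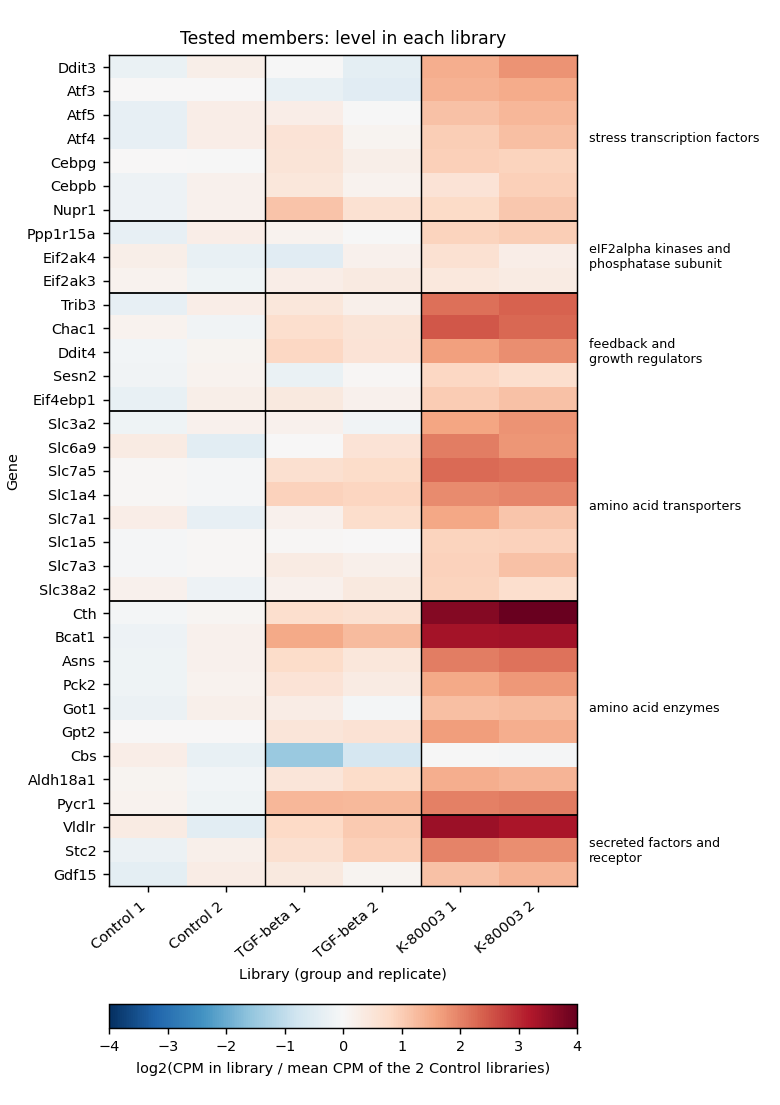
Level of the 35 tested genes in each of the 6 libraries, as log2 of the CPM over the mean of the 2 Control libraries (colour), grouped by role. Both K-80003 columns are the reddest for most rows; Cth, Bcat1 and Vldlr stand out, while Nupr1 is as high with TGF-beta alone.

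Promoter windows of these genes were also examined for short sequence elements. RefSeq windows on GRCm38.p6, running from 250 bases before to 50 after an annotated start, were at hand for 31 of the 36 genes (39 windows). The core of the C/EBP-ATF response element, TGATGNAA read on either strand, was present for 11 of the 31 genes (35.5%), against 4.51% of 27025 genes with a window. By windows these shares were 28.2% and 3.97%. The cyclic AMP response element TGACGTCA was present for 1 of the 31, Ppp1r15a, against 2.03% of all genes. The endoplasmic reticulum stress element, CCAAT and CCACG separated by 9 bases, was found for 0 of the 31, against 0.137% of all genes. Of the 10 tested genes with TGATGNAA, 9 rose with K-80003 against TGF-beta, the other being Nupr1. Of the 20 tested genes whose windows lack it, 10 rose. With K-80003 against Control these counts were 10 of 10 and 16 of 20. With TGF-beta against Control they were 2 of 10 and 1 of 20. The 11 genes were Atf3, Chac1, Vldlr, Trib3, Asns, Slc1a4, Pck2, Got1, Pycr1, Nupr1 and Fgf21. The 10 that rose without the motif in a window were Bcat1, Slc3a2, Ddit3, Gpt2, Ddit4, Slc6a9, Stc2, Aldh18a1, Atf5 and Sesn2. Cth, Slc7a5 and Slc1a5 also rose and had no window. A match is only a description of the letters in the window. The 36 genes were listed as genes of this response and the motif as its element. Neither its share among them nor the counts that rose with or without it are therefore independent support. How many of all genes with the motif rose was not counted, and a part of the motif in the rises was not tested.

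The windows of the 6 matching genes with the smallest p in this comparison are shown 5′ to 3′ on the gene's strand, with the match in capitals. Vldlr had another window, without a match, which is not shown. Counted with the annotated start as 0, the matches begin at -110 in Atf3, -193 in Chac1, -200 in Vldlr, 14 in Trib3, -23 in Asns and -4 in Slc1a4. Atf3, Chac1, Vldlr and Slc1a4 carry the same 8 letters, TTGCATCA, the reverse complement of TGATGCAA; Trib3 carries TTACATCA and Asns TGATGAAA.
Atf3, chr1:191183284-191183583, minus strand: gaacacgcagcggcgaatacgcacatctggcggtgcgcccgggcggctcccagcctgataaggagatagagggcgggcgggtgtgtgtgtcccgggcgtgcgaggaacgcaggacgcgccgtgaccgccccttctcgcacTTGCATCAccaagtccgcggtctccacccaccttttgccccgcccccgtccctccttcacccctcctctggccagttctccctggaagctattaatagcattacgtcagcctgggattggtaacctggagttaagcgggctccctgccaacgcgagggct
Chac1, chr2:119350992-119351291, plus strand: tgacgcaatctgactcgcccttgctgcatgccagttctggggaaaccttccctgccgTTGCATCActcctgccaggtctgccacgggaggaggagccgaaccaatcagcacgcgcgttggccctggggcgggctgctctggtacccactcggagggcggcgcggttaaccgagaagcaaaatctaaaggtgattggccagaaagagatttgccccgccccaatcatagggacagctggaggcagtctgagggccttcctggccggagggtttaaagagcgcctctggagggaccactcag
Vldlr, chr19:27216770-27217069, plus strand: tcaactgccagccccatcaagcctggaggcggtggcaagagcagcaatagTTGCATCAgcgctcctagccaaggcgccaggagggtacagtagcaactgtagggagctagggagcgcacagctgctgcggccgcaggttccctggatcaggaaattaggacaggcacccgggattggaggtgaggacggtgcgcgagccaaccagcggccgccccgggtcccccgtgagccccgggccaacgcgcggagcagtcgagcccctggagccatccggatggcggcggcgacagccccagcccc
Trib3, chr2:152344011-152344310, minus strand: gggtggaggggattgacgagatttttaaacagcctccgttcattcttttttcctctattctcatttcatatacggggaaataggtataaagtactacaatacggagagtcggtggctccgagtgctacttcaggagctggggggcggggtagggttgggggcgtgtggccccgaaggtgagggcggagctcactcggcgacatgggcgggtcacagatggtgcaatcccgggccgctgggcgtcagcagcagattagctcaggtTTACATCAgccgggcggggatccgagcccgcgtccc
Asns, chr6:7693160-7693459, minus strand: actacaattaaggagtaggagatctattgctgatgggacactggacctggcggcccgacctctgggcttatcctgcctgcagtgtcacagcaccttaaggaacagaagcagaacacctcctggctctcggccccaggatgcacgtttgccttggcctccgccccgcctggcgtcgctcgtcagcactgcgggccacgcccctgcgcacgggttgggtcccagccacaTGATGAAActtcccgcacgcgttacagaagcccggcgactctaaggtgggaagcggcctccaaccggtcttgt
Slc1a4, chr11:20332664-20332963, minus strand: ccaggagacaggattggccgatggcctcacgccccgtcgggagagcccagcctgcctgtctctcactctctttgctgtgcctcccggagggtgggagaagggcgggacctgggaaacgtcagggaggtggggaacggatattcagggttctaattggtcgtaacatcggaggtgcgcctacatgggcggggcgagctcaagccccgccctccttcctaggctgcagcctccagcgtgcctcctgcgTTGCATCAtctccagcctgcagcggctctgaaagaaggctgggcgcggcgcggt

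Among the stress transcription factors, Atf3, Ddit3 and Atf5 rose with K-80003, and Atf4, Cebpb, Cebpg and Nupr1 were not called against TGF-beta alone. Atf4 (ENSMUSG00000042406, GRCm39 chromosome 15, 80139385 to 80141742), the central factor, stood at 245 and 373 CPM in Control, 450 and 335 with TGF-beta, and 605 and 718 with K-80003. Both K-80003 libraries were above the others, while Control and TGF-beta overlapped. Its log2 difference was 0.75 against TGF-beta (SE 0.25, adjusted p = 0.134), and against Control it rose by 1.10 (SE 0.26, adjusted p = 0.0317). The latter call was lost without Control replicate 1 (adjusted p = 0.0951) and without K-80003 replicates 1 (0.0969) and 2 (0.178). It also just missed under upper-quartile scaling (0.0506) and in limma on log2(FPKM + 1) (0.0508) and log2(FPKM + 0.1) (0.0607), while DESeq2 gave 0.000891. Against TGF-beta, DESeq2 gave 0.0531 and edgeR without the low-count filter 0.00737.

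Atf3 (ENSMUSG00000026628, chromosome 1, 190902493 to 190950236), a stress-induced bZIP factor, stood at 11.0 and 11.1 CPM in Control, 8.93 and 8.02 with TGF-beta, and 28.8 and 30.9 with K-80003. It rose by 1.81 against TGF-beta (SE 0.15, adjusted p = 0.00146), a 3.52-fold change, with TGF-beta the lowest group. Ddit3 (ENSMUSG00000025408, chromosome 10, 127126643 to 127132157), which encodes the cell death factor CHOP, stood at 27.1 and 37.6 CPM in Control, 32.1 and 24.5 with TGF-beta, and 88.3 and 112 with K-80003. Control and TGF-beta overlapped here too. Ddit3 rose by 1.82 (SE 0.24, adjusted p = 0.00605). Mars1, a tRNA synthetase gene, overlaps Ddit3 on the other strand with 12499 reads against 5638 for Ddit3; with no strand setting stated, reads of the overlap cannot be assigned with certainty. Mars1 itself had a log2 difference of 0.50 with K-80003 against TGF-beta (adjusted p = 0.073) and rose by 0.81 against Control (adjusted p = 0.00979).

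Atf5, an ATF4 relative tied to mitochondrial stress, stood at 132 and 202 CPM in Control, 200 and 166 with TGF-beta, and 375 and 423 with K-80003. Control and TGF-beta overlapped. It rose by 1.13 (SE 0.23, adjusted p = 0.0307). The call was lost without either TGF-beta or either K-80003 library (adjusted p from 0.0854 to 0.194) and in limma on log2(FPKM + 0.1) (0.0507). Nup62 overlaps Atf5 on the other strand with 5532 reads against 26189.

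Cebpg, a C/EBP partner of ATF4, stood at 63.3 and 61.5 CPM in Control, 90.0 and 73.8 with TGF-beta, and 122 and 115 with K-80003. It was called only against Control among the 3 comparisons (log2 change 0.92, SE 0.16, adjusted p = 0.0105). Nupr1, a stress-induced chromatin protein, showed a different order: 70.9 and 92.5 CPM in Control, 180 and 124 with TGF-beta, and 140 and 174 with K-80003. The TGF-beta and K-80003 libraries overlapped (log2 difference 0.05, adjusted p = 0.943), and the rise against Control was 0.94 (SE 0.24, adjusted p = 0.0449). Cebpb, another C/EBP factor, had a mean of 63.6 ± 12.4 CPM in Control, 78.5 ± 11.4 in TGF-beta and 108 ± 20.5 in K-80003 (SD, n = 2), and was called in none of the 3 comparisons (adjusted p = 0.0637 against Control, and 0.022 in DESeq2); Peds1 overlaps it on the other strand with 6359 reads against 8659. The calls of Cebpg and Nupr1 were both lost without Control replicate 2 (adjusted p = 0.0612 and 0.0875), K-80003 replicate 1 (0.0962 and 0.11) and K-80003 replicate 2 (0.0784 and 0.248), and that of Nupr1 also without Control replicate 1 (0.158). The Nupr1 call was lost as well under upper-quartile scaling (0.0735) and in limma on log2(FPKM + 1) (0.0731) and log2(FPKM + 0.1) (0.0873), and its difference from TGF-beta was -0.23 without TGF-beta replicate 2 and -0.12 without K-80003 replicate 2.

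Neither of the kinases that start the response was called. Eif2ak3, which encodes the endoplasmic reticulum stress kinase PERK, stood at 51.9 and 41.4 CPM in Control, 55.5 and 59.6 with TGF-beta, and 62.9 and 57.9 with K-80003. Its log2 difference with K-80003 was 0.07 against TGF-beta (SE 0.16, adjusted p = 0.865) and 0.37 against Control (SE 0.16, adjusted p = 0.187). Eif2ak4, which encodes the amino acid sensor GCN2, had means of 32.3 ± 8.57, 29.9 ± 9.04 and 44.0 ± 7.56 CPM in Control, TGF-beta and K-80003 and was not called (adjusted p = 0.313 against TGF-beta). Ppp1r15a, the stress-induced subunit that directs a phosphatase to eIF2α, stood at 62.5 and 93.6 CPM in Control, 86.6 and 77.7 with TGF-beta, and 145 and 155 with K-80003. Both K-80003 libraries were above the others. The log2 difference from TGF-beta was 0.87 (SE 0.22, adjusted p = 0.0548). Against Control the gene rose by 0.95 (SE 0.22, adjusted p = 0.0296), a call lost without Control replicate 1 (0.0811) and K-80003 replicates 1 (0.124) and 2 (0.164), and in limma on log2(FPKM + 0.1) (0.055).

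Of the 5 feedback and growth regulators, 4 rose with K-80003 against TGF-beta. Trib3 (ENSMUSG00000032715, chromosome 2, 152179342 to 152185952), a pseudokinase that binds ATF4 and holds it back, stood at 17.2 and 25.9 CPM in Control, 29.6 and 24.7 with TGF-beta, and 99.9 and 110 with K-80003. It rose by 1.95 (SE 0.23, adjusted p = 0.00399), and its Control and TGF-beta libraries overlapped. Chac1 (ENSMUSG00000027313, chromosome 2, 119181710 to 119184862), an enzyme that breaks down glutathione, stood at 8.52 and 7.06 CPM in Control, 12.3 and 11.2 with TGF-beta, and 43.3 and 38.3 with K-80003. It rose by 1.80 (SE 0.17, adjusted p = 0.00182), and the 3 groups did not overlap. The promoter windows of both genes hold the response element core shown above.

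Ddit4, an inhibitor of the growth kinase mTORC1, was lowest in Control and highest with K-80003: 38.0 and 44.5 CPM in Control, 72.7 and 60.5 with TGF-beta, and 129 and 149 with K-80003, with no overlap between groups. Only the K-80003 comparisons passed the test, at 1.07 against TGF-beta (SE 0.17, adjusted p = 0.0134) and 1.76 against Control (SE 0.18, adjusted p = 0.0017). Without TGF-beta replicate 2 (0.104) or K-80003 replicates 1 (0.0722) and 2 (0.128) the first of these was lost. Sesn2, a leucine sensor that also restrains mTORC1, stood at 38.7 and 47.3 CPM in Control, 35.8 and 44.4 with TGF-beta, and 75.6 and 68.6 with K-80003. It rose by 0.85 (SE 0.18, adjusted p = 0.0326), a call lost without any TGF-beta or K-80003 library (0.0749 to 0.224). Eif4ebp1, a brake on cap-dependent translation, stood at 77.7 and 114 CPM in Control, 126 and 109 with TGF-beta, and 192 and 217 with K-80003. Its log2 difference from TGF-beta was 0.80 (SE 0.22, adjusted p = 0.0744), and it rose by 1.09 against Control (adjusted p = 0.0192; 0.0566 without Control replicate 1, and 0.0796 and 0.129 without K-80003 replicates 1 and 2).

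**Figure D3:**
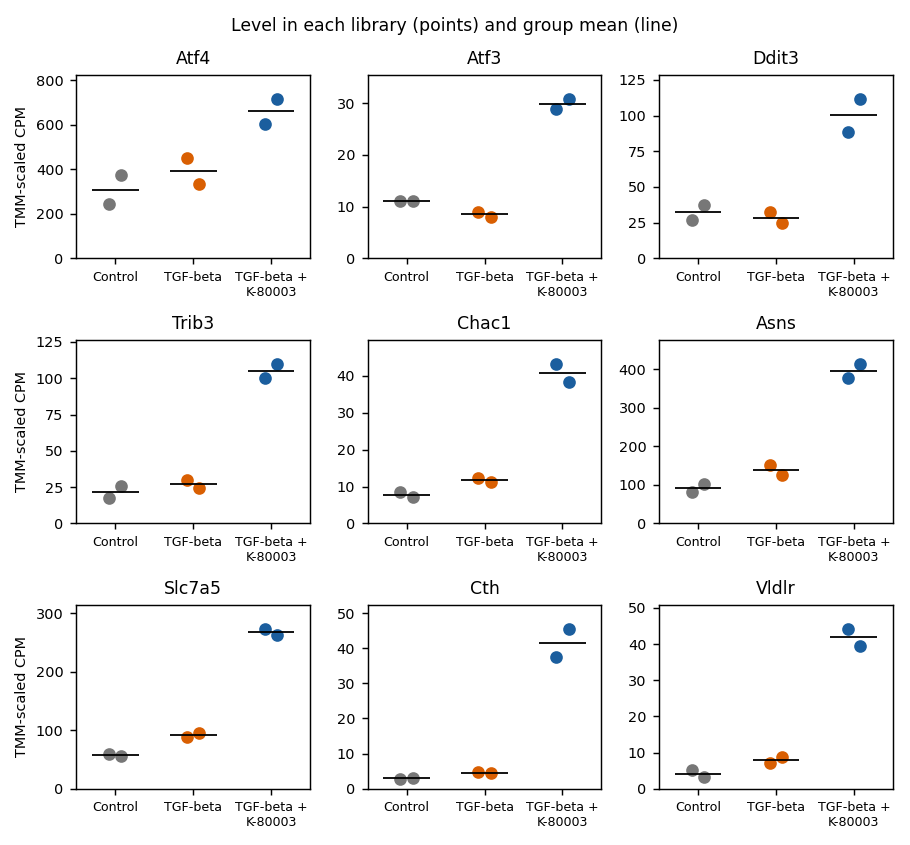
TMM-scaled CPM of 9 of the genes in each library (points, y axis) by group (x axis), with group means as lines. In each panel both K-80003 points lie above the other 4. For Atf4, Ddit3 and Trib3 the Control and TGF-beta points overlap. The 9 are a selection of the genes, and the share of all tested genes with this order was not counted.

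The 8 amino acid transporters all had higher values with K-80003 than with TGF-beta alone, and 5 rose. Slc7a5 and Slc3a2 encode the light and heavy chains of the large neutral amino acid exchanger LAT1. Slc7a5 (ENSMUSG00000040010, chromosome 8, 122607889 to 122634433) stood at 58.9 and 55.6 CPM in Control, 88.3 and 95.7 with TGF-beta, and 273 and 262 with K-80003. It rose by 1.54 (SE 0.14, adjusted p = 0.00178), with the TGF-beta libraries between the other groups. Slc3a2 (ENSMUSG00000010095, chromosome 19, 8684246 to 8700733) stood at 219 and 278 CPM in Control, 277 and 223 with TGF-beta, and 745 and 858 with K-80003. Its rise was 1.68 (SE 0.20, adjusted p = 0.0041), from TGF-beta libraries that overlapped Control.

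Slc1a4, a carrier of neutral amino acids such as serine and alanine, stood at 28.6 and 26.4 CPM in Control, 52.2 and 50.3 with TGF-beta, and 101 and 106 with K-80003. It was called at each step, at 0.90 with TGF-beta (SE 0.14, adjusted p = 0.0272) and 1.02 with K-80003 on top (SE 0.14, adjusted p = 0.00668). The first call was lost with any library left out (0.0973 to 0.18) and the latter without TGF-beta replicate 2 (0.0648) or K-80003 replicates 1 (0.0663) and 2 (0.0814). Slc1a5, the glutamine carrier ASCT2, overlapped between the first 2 groups, with 29.9 and 32.0 CPM in Control and 32.0 and 31.5 with TGF-beta, and stood at 56.7 and 59.1 with K-80003. It rose by 0.87 (SE 0.13, adjusted p = 0.0102; 0.0747 to 0.122 without any TGF-beta or K-80003 library). Slc6a9, the glycine carrier GLYT1, stood at 41.2 and 24.7 CPM in Control, 33.3 and 48.5 with TGF-beta, and 136 and 112 with K-80003. It rose by 1.60 (SE 0.30, adjusted p = 0.0213), a call lost without TGF-beta replicate 1 (0.0854) or K-80003 replicates 1 (0.115) and 2 (0.0744). B4galt2 overlaps it on the other strand with 2782 reads against 6966.

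The 3 others were called against Control but not against TGF-beta, where the log2 difference was 0.88 for Slc7a1 (adjusted p = 0.125), 0.50 for Slc38a2 (adjusted p = 0.17) and 0.78 for Slc7a3 (adjusted p = 0.0783). Slc7a1, a cationic amino acid carrier, stood at 196 and 128 CPM in Control, 182 and 265 with TGF-beta, and 469 and 353 with K-80003 (log2 change 1.34 against Control, SE 0.29, adjusted p = 0.0253). Slc38a2, the glutamine and alanine carrier SNAT2, stood at 622 and 479 CPM in Control, 619 and 723 with TGF-beta, and 1020 and 881 with K-80003 (0.79 against Control, SE 0.19, adjusted p = 0.0342). Both calls were lost without Control replicate 2 (0.0789 and 0.121) or either K-80003 library (0.0624 to 0.219), and that of Slc38a2 also with the compared libraries fitted alone (0.0515). Slc7a3, another cationic carrier, was low throughout, at 2.94 and 3.18 CPM in Control, 3.85 and 3.51 with TGF-beta, and 5.82 and 6.86 with K-80003 (1.04 against Control, SE 0.22, adjusted p = 0.0225; 0.0842 to 0.158 without any Control or K-80003 library).

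The amino acid enzymes had 8 of 9 genes rising with K-80003 against TGF-beta. Cth (ENSMUSG00000028179, chromosome 3, 157599885 to 157630714), the cysteine-producing enzyme of transsulfuration, stood at 2.76 and 3.13 CPM in Control, 4.64 and 4.50 with TGF-beta, and 37.5 and 45.5 with K-80003. Its rise of 3.18 (SE 0.18, adjusted p = 0.000488), or 9.07-fold, ranked 31 among all 15987 tested genes. Hepatocytes also express Cth; the K-80003 libraries with 37.5 and 45.5 CPM of Cth had 5.19 and 49.9 CPM of summed hepatocyte markers. Cbs, which acts just before Cth in the same pathway, had between 5 and 15 reads per library and was not called (log2 difference 0.99, SE 0.51, adjusted p = 0.323).

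Bcat1 (ENSMUSG00000030268, chromosome 6, 144939561 to 145021910), the cytosolic enzyme that starts branched-chain amino acid breakdown, stood at 6.45 and 8.28 CPM in Control, 20.9 and 17.9 with TGF-beta, and 73.7 and 75.8 with K-80003. It rose at each step, by 1.40 with TGF-beta (SE 0.18, adjusted p = 0.0163) and by 1.94 with K-80003 on top (SE 0.17, adjusted p = 0.00168); the TGF-beta call was lost without either Control library, either TGF-beta library or K-80003 replicate 2 (0.053 to 0.0993). Asns (ENSMUSG00000029752, chromosome 6, 7675169 to 7693254), asparagine synthetase, stood at 81.4 and 102 CPM in Control, 151 and 126 with TGF-beta, and 378 and 414 with K-80003. It rose by 1.52 (SE 0.18, adjusted p = 0.00431), again with no overlap between groups.

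The proline enzymes Pycr1 and Aldh18a1, which act in the route from glutamate to proline, had smaller K-80003 steps than Bcat1 and Asns. Pycr1 stood at 14 and 11.1 CPM in Control, 31.6 and 30.8 with TGF-beta, and 50.4 and 53.4 with K-80003. It rose by 1.31 with TGF-beta (SE 0.16, adjusted p = 0.0152) and by 0.73 with K-80003 on top (SE 0.16, adjusted p = 0.0345). The TGF-beta call was lost without Control replicate 2 (0.0767) or TGF-beta replicates 1 (0.0922) and 2 (0.0712). Aldh18a1 stood at 90.2 and 76.3 CPM in Control, 117 and 139 with TGF-beta, and 227 and 215 with K-80003, and rose by 0.79 against TGF-beta (SE 0.16, adjusted p = 0.0303). The K-80003 calls of both genes were lost without any TGF-beta or K-80003 library (0.0887 to 0.242).

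Pck2, the mitochondrial enzyme that makes phosphoenolpyruvate, stood at 72.4 and 89.7 CPM in Control, 119 and 102 with TGF-beta, and 230 and 271 with K-80003, a rise of 1.18 (SE 0.18, adjusted p = 0.0109). The transaminases Gpt2 and Got1 also rose. Gpt2 stood at 17.0 and 17.1 CPM in Control, 24.0 and 25.3 with TGF-beta, and 54.0 and 46.8 with K-80003 (1.03, SE 0.14, adjusted p = 0.00746). Got1 stood at 27.3 and 37.2 CPM in Control, 39.3 and 30.3 with TGF-beta, and 74.4 and 77.2 with K-80003 (1.12, SE 0.21, adjusted p = 0.0209). Each of these 3 calls was lost without K-80003 replicate 1 (0.0575, 0.0876 and 0.113 for Pck2, Gpt2 and Got1) and replicate 2 (0.11, 0.0531 and 0.134), and those of Pck2 and Got1 also without TGF-beta replicate 2 (0.0836 and 0.123).

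Among the secreted factors and the receptor, Vldlr (ENSMUSG00000024924, chromosome 19, 27193884 to 27231631), a receptor for triglyceride-rich lipoproteins, stood at 5.20 and 3.13 CPM in Control, 7.24 and 8.63 with TGF-beta, and 44.2 and 39.6 with K-80003. It rose by 2.40 (SE 0.25, adjusted p = 0.00263), or 5.28-fold, with rank 74 among all tested genes. Stc2, a secreted glycoprotein, stood at 4.76 and 6.54 CPM in Control, 8.82 and 11.0 with TGF-beta, and 22.3 and 20.6 with K-80003. It rose by 1.11 (SE 0.21, adjusted p = 0.0229; 0.0575 to 0.146 without any TGF-beta or K-80003 library). Gdf15, a stress cytokine that curbs appetite, stood at 27.3 and 43.7 CPM in Control, 46.3 and 38.0 with TGF-beta, and 79.2 and 91.5 with K-80003. The log2 difference from TGF-beta was 1.02 (SE 0.25, adjusted p = 0.0531), and the gene rose by 1.27 against Control (adjusted p = 0.0181; 0.0676 and 0.11 without K-80003 replicates 1 and 2). Fgf21 had 0 and 3 reads in Control, 5 and 4 with TGF-beta, and 6 and 4 with K-80003, too few to compare.

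**Figure D4:**
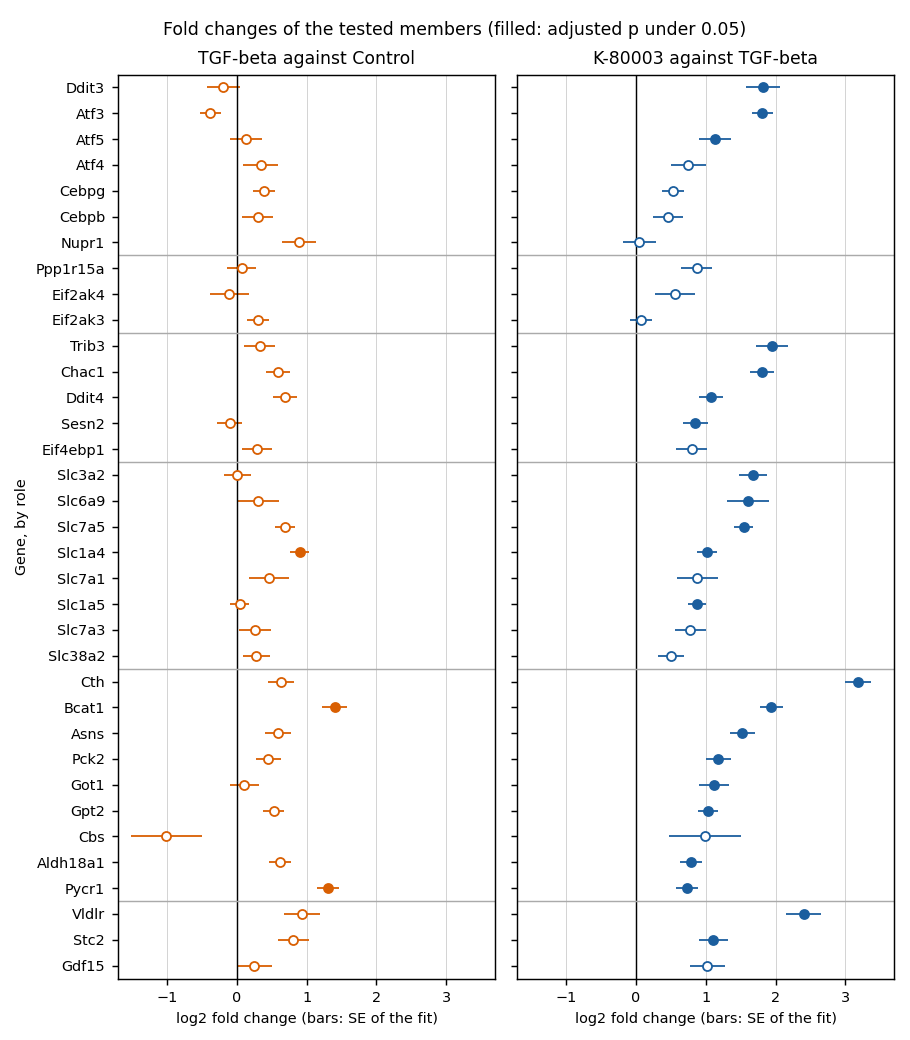
Log2 fold changes (points, x axis) with their SE (bars) for the 35 tested genes (y axis, by role) with TGF-beta against Control (left) and with K-80003 against TGF-beta (right); filled points passed an adjusted p of 0.05. On the right all 35 lie above 0 and 22 are filled, while on the left 3 are filled and Cbs lies lowest at -1.01.

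TGF-beta against Control asks what the cytokine did on its own. Of the 36 genes 3 rose, the neutral amino acid carrier Slc1a4 and the enzymes Bcat1 and Pycr1 described above, and 32 were tested and not called. Over all genes 1.06% were called higher and 1.88% lower in this comparison. None of the 35 was called lower by edgeR, DESeq2 or limma. At an unadjusted p under 0.05 in edgeR, 15 of the 35 were higher. At that level 1, Atf3, was lower, with a log2 difference of -0.38 (SE 0.15, adjusted p = 0.326). Of all 15987 genes tested, 1044 were higher and 1309 lower at that level. The log2 difference was positive for 30 of the 35 and negative for 5. DESeq2 called 6 higher. The median log2 difference of the 35 was 0.33 against 0.01 over all genes. The count fell to 0 when the 4 compared libraries were fitted alone, and when Control replicate 2 or any TGF-beta library was left out. It fell to 1 when Control replicate 1 or the second K-80003 library was left out. Atf4 (0.34, adjusted p = 0.667), Ddit3 (-0.19, adjusted p = 0.848), Eif2ak3 (0.30, adjusted p = 0.498) and Ppp1r15a (0.07, adjusted p = 0.958) had no called difference. This comparison and that of K-80003 with TGF-beta share the TGF-beta libraries, so they are not independent of each other.

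K-80003 against Control sets the combined treatment beside the Control cells. Of the 36 genes 31 rose, and Cebpb, Eif2ak3, Eif2ak4 and Cbs were tested and not called. Over all genes 5.54% were called higher and 11.7% lower. None of the 35 was called lower by edgeR, DESeq2 or limma, also at an unadjusted p under 0.05. The median log2 change of the 35 was 1.41, against 0.02 over all genes. Cth rose 14.1-fold (log2 change 3.81, SE 0.19, adjusted p = 0.000252), Bcat1 10.1-fold (3.34, SE 0.19, adjusted p = 0.000349) and Vldlr 10.1-fold (3.33, SE 0.26, adjusted p = 0.000805). Chac1, Trib3, Slc7a5 and Asns rose by 2.39, 2.28, 2.23 and 2.11 on the log2 scale. The number called was 18 without either K-80003 library, and 25 and 26 without Control replicates 1 and 2.

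Per kilobase of exon, on the deposited FPKM scale, the order of levels also shifted. In Control the highest of the 36 were Atf4 (mean 135 ± 41.5 FPKM, SD, n = 2), Atf5 (86.6 ± 26.8), Slc3a2 (72.6 ± 13.2) and Slc38a2 (64.2 ± 10.9). With K-80003 they were Atf4 (286 ± 41.1), Slc3a2 (232 ± 28.2), Atf5 (204 ± 21.9) and Asns (148 ± 12.7). Asns, at 34.5 ± 5.9 in Control, was then above Slc38a2, at 110 ± 9.15. Neighbours such as Slc3a2 and Atf5 with K-80003 lay within 2 SDs of each other and were not tested. Cth, at 1.09 ± 0.113 FPKM in Control and 15.2 ± 2.43 with K-80003, and Vldlr, at 0.425 ± 0.148 and 4.24 ± 0.24, were far below these.

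Other genes of the pathway were given by 7 lists. Against Control, K-80003 gave higher calls for 3 of 12 eIF2 genes, 3 of 7 mitochondrial relay genes and 8 of 15 endoplasmic reticulum genes. None of these lists had a gene called lower. The 12 bZIP genes had 4 higher and 1 lower, and the 16 transporters 2 and 1. The 18 enzymes had 1 higher and 3 lower, and the 18 amino acid sensing genes 0 and 1. Over all genes tested, 5.54% were higher and 11.7% lower. The counts that follow are for K-80003 against TGF-beta. None of 12 genes for the other eIF2 kinases, eIF2, eIF2B and phosphatase subunits was called with K-80003 against TGF-beta by edgeR (3 were higher and 0 lower at an unadjusted p under 0.05), nor by DESeq2 or limma. None of 18 genes of amino acid sensing and mTORC1 was called in the edgeR fit reported (0 higher and 2 lower at an unadjusted p under 0.05). DESeq2 and edgeR without the low-count filter each called 1 of them lower. Of 15 endoplasmic reticulum stress sensors and chaperones 4 rose: Herpud1, of protein degradation (0.78, adjusted p = 0.0206), the chaperones Hyou1 (0.70, adjusted p = 0.0241) and Hspa5 (0.84, adjusted p = 0.0419), and the cochaperone Dnajb9 (0.86, adjusted p = 0.0249). That count was 8 in DESeq2, 6 and 3 in limma with pseudocounts of 1 and 0.1, 6 without the low-count filter, and 0 when any TGF-beta or K-80003 library was left out; Hspa5 was named after its values were seen. Of 7 genes of the mitochondrial stress relay, the protease gene Lonp1 (1.03, adjusted p = 0.00839) and the chaperone gene Hspa9 (0.88, adjusted p = 0.0239) rose. The count was 1 without TGF-beta replicate 1 and 0 without TGF-beta replicate 2 or 1 of the K-80003 libraries.

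Of 12 further bZIP genes, Jdp2, a repressor related to ATF3 (1.10, adjusted p = 0.00687), and Nfe2l1, a regulator of proteasome genes (0.78, adjusted p = 0.0211), rose; the count was 4 in DESeq2, 1 with a TGF-beta library left out and 0 with a K-80003 library left out. DESeq2 and edgeR without the low-count filter each called 1 of the 12 bZIP genes lower. Of 16 further amino acid transporters tested, 1 rose and 1 fell. Slc7a11, which imports cystine and pairs with the Slc3a2 heavy chain, went from 167 ± 55.6 to 808 ± 206 CPM (SD, n = 2), a rise of 2.28 (SE 0.35, adjusted p = 0.0107). Its libraries ran from 128 to 206 CPM with TGF-beta and from 662 to 954 with K-80003, and the list had 0 genes higher without K-80003 replicate 1 and 2 in DESeq2. The glutamate carrier Slc1a3 had 33 and 28 reads with TGF-beta and 3 and 0 with K-80003, and was not called without K-80003 replicate 2 or either TGF-beta library, or in limma on log2(FPKM + 1). Of 18 further amino acid enzymes tested, 0 rose by edgeR, DESeq2 or limma (2 at an unadjusted p under 0.05) and 1 fell: Cdo1, which oxidises cysteine, went from 14.1 ± 3.52 to 2.12 ± 1.07 CPM (SD, n = 2; log2 change -2.74, SE 0.41, adjusted p = 0.00943). With K-80003 replicate 1 left out it was not called.

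**Figure D5:**
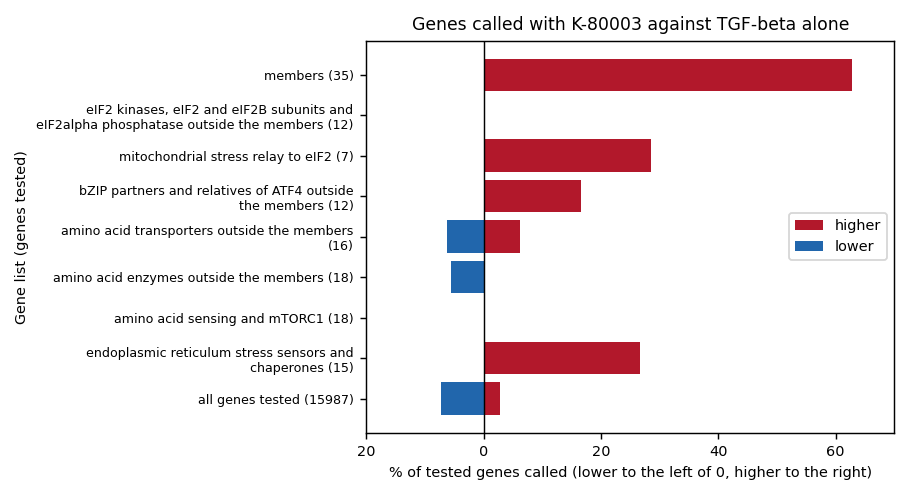
Share of tested genes (x axis, %) called higher (red, right of 0) or lower (blue, left of 0) with K-80003 against TGF-beta, for the 35 tested stress response genes, the 7 other lists and all genes tested (y axis, number tested in brackets). The stress response genes reach 62.9% against 2.78% of all genes; 2 lists have no called gene.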

How the data were processed

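Poly(A) RNA was sequenced from 6 libraries, per the labels' protocols. Per the submitters' processing notes, the tools were HISAT2 2.0.1 and cutadapt 1.9.1, with HTSeq 0.6.1, SAMtools 0.1.19, DESeq2 and Cufflinks 2.2.1, on build GRCm39, with no roles stated. The sources used here do not state the annotation release or the strand setting. The deposited table held unnormalized read counts and FPKM values per library; the deposited FPKM equalled count over exonic length and summed counts for 100% of values.

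Genes passing edgeR's filterByExpr (minimum count 10, minimum total 15) were scaled by TMM and tested with edgeR 4.0.16 (R 4.3.3) quasi-likelihood tests in a fit of all groups with no blocking term (residual degrees of freedom 3); genes left out held 0.13% of counts. SEs are the log2 fold change over the square root of its F statistic. P-values were two-sided and Benjamini-Hochberg adjusted over all genes. The procedure was also run on simulated counts with the same dispersion for every gene. These had no length-related difference between libraries, so that run does not cover this feature of the real data. Alternatives were DESeq2 1.42.0, limma 3.58.1 on log2(FPKM + 1) and log2(FPKM + 0.1), other scalings, no filter, libraries left out and blocks. Members, lists, motifs and the naming rule (every member, with each library's value where any comparison called it) were chosen with earlier results of these data known. Promoter windows came from RefSeq (GRCm38.p6) by symbol; gene coordinates are the table's, on GRCm39.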

Additional observations from a re-analysis of the deposited data

How the results depend on the processing

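Every called gene kept its direction under each alternative. With K-80003 against TGF-beta, 22 genes were called higher in the fit reported; the count was 22 to 27 under the other scalings, DESeq2, limma, no filter and the libraries compared alone, and 10 to 25 with 1 library left out. Against Control it was 31, 27 to 32 under those settings, and 18 to 31 with 1 library left out. With TGF-beta against Control it was 3, but 6 with DESeq2, 7 without the low-count filter, 0 with the libraries compared alone, and 0 to 2 with 1 library left out.

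Same-numbered libraries deviated together in Control and K-80003, where replicate differences had a correlation of 0.50 across genes. Those of TGF-beta ran the opposite way, with correlations of -0.64 with Control and -0.48 with K-80003. With a replicate block the 3 counts of genes called higher were 0 (TGF-beta against Control), 13 (K-80003 against TGF-beta) and 23 (K-80003 against Control). A block with the TGF-beta numbers crossed, added after seeing the data, gave 23, 32 and 34.

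Among the differences recomputed (every gene with K-80003, and the called or named ones with TGF-beta against Control), 4 changed sign, all uncalled. With 1 library left out, Ddit3 (TGF-beta against Control) ran from -0.43 to 0.06, Ppp1r15a (TGF-beta against Control) from -0.19 to 0.39, Nupr1 (K-80003 against TGF-beta) from -0.23 to 0.36 and Cbs (K-80003 against Control) from -0.3 to 0.27. Both limma settings gave -0.02 for Ppp1r15a, and 0 and 0.01 for Cbs, which was -0.02 in the fit reported. Over all genes, TGF-beta against Control had 470 calls, 846 with DESeq2, 1143 without the filter, 199 with the libraries compared alone, 40 with the block and 89 to 218 with 1 library left out. K-80003 against TGF-beta had 1616, 2492 without the filter, 792 with the block and 451 to 1661 with 1 library left out, and K-80003 against Control 2758, 1564 with the block and 996 to 2397 with 1 library left out. The crossed block gave 3708, 5903 and 7352. The unscaled FPKM with a pseudocount of 0.1 moved the median of all genes from 0.01 to -0.1 (TGF-beta against Control) and to 0.11 (K-80003 against TGF-beta); the medians of the 35 were then 0.23 and 1.12. The causes of these shifts were not tested. Few reads limit Fgf21 and Cbs.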
